A study of Homo sapiens with 4 samples.

Results

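The genes described here encode the machinery of macroautophagy, the route by which a cell wraps part of its own cytoplasm in a membrane and delivers it to the lysosome for breakdown. They are 41 genes in 8 roles, chosen by name: the initiation kinase complex, the class III PI3-kinase complex, membrane supply and PI3P binding, the conjugation machinery, the ATG4 proteases, the ATG8 family, the cargo receptors and the lysosome. All 41 were found on the array, with 67 probes matched by current symbol, by an older name or by RefSeq transcript. A probe was kept when both controls, both embelin arrays or all 4 read it well above background, which left 60 probes for 39 genes. These 39 genes were tested among 17649 genes or transcripts.

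RNA came from A549 cells, a human lung adenocarcinoma line, and was labelled with 1 dye and hybridized to 4 oligonucleotide arrays on 1 slide. The 2 control samples were untreated (0 µM embelin, with no vehicle named), and the 2 embelin samples had received embelin, a plant benzoquinone, at 15 µM for 4 h. All samples, controls included, had been kept in medium with 2% serum from 12 h before the treatment, so the controls were themselves in low serum. The study compared the groups to look for pathways that change early under embelin.

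The labels number the replicates but do not say that they came from separate cultures, so the spread between these samples may be technical. Each limma p-value below sets a difference against that spread, combined with the spread of all genes. On the slide, control replicates 1 and 2 had positions 4 and 1 and embelin replicates 1 and 2 had positions 2 and 3, a layout in which position and treatment cannot be fully told apart. Between 50.3% and 66.7% of all probes were well above background on an array, with 1 array of each group near either end of that range. All 8 A549 epithelial markers examined (KRT8, KRT18, EPCAM, CDH1, AKR1C1, AKR1B10, ALDH1A1 and NQO1) were well above background, with log2 fold changes between -0.56 and -0.10. Of 10 markers of leukocytes, fibroblasts and endothelium, 7 were not kept, among them PTPRC and PECAM1. The other 3 were measured, CD68 with a log2 fold change of 0.39, CD14 with -0.60 and COL1A1, a fibroblast collagen, with 1.30 (adjusted p = 0.0546 by limma). Their part in the results was not tested.

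Autophagy starts when the ULK1 kinase complex, held in check by mTORC1 in fed cells and activated by AMPK in starved ones, signals to a lipid kinase built around VPS34 and Beclin 1. The lipid it makes, PI3P, recruits WIPI proteins, while ATG9 vesicles and ATG2 lipid transfer proteins feed the growing membrane. Conjugating enzymes related to those of ubiquitin then attach ATG8 proteins (the LC3 and GABARAP proteins) to the membrane, where cargo receptors such as p62 bind them. Several ATG8 proteins and receptors are themselves degraded with the cargo, and their genes are transcribed again during long autophagy under factors such as TFEB and FOXO3.

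Signals below are log2 intensities after the 75th percentiles of the arrays were made equal, and a log2 fold change is the embelin mean minus the control mean on that scale. Signals of different genes come from different probes and are not compared. A call after adjustment means an adjusted p under 0.05 from limma, with Benjamini-Hochberg adjustment over all genes tested, and "rose" and "fell" are kept for such calls. A looser rule, after the threshold in the study's methods, asked for a difference of at least 2-fold with an unadjusted limma p under 0.05.

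GABARAPL1 rose, and ULK1 and MAP1LC3B were more than 2-fold higher without passing the adjusted threshold, while PIK3R4 was more than 2-fold lower, also without passing it. The stretches of genome around the starts of these 4 genes are shown because they are the members with the largest differences, and because the text returns to the motifs they hold. Each is the 300-base window of the RefSeq promoter table (GRCh38.p14) that runs from upstream of the annotated transcript start to just inside the transcript, written 5′ to 3′ on the gene's strand. Capitals mark a matched motif, TGACGTCA (the cyclic AMP response element) in GABARAPL1 at position -30 from the transcript start, and TGACCAGGC, a match to the antioxidant response element pattern TGACNNNGC, in MAP1LC3B at position -46. The windows of ULK1 and PIK3R4 held none of the 6 patterns searched.
GABARAPL1, chr12:10212627-10212926, plus strand: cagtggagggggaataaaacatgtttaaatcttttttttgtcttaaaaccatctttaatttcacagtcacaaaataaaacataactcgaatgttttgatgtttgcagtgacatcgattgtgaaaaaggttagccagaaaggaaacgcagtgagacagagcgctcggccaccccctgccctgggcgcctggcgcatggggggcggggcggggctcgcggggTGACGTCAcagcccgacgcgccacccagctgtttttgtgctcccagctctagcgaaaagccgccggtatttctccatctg
ULK1, chr12:131894372-131894671, plus strand: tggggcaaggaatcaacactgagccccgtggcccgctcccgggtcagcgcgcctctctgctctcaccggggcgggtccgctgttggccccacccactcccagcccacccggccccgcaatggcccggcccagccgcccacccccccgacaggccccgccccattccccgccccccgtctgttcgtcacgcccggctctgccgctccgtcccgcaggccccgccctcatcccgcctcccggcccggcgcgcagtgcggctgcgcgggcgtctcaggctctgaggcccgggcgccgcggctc
MAP1LC3B, chr16:87392086-87392385, plus strand: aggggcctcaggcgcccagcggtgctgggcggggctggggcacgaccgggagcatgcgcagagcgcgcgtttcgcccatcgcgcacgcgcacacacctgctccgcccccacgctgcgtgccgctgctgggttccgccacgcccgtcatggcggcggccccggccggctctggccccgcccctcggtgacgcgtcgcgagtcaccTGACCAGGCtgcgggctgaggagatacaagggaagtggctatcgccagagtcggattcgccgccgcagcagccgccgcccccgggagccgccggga
PIK3R4, chr3:130746780-130747079, minus strand: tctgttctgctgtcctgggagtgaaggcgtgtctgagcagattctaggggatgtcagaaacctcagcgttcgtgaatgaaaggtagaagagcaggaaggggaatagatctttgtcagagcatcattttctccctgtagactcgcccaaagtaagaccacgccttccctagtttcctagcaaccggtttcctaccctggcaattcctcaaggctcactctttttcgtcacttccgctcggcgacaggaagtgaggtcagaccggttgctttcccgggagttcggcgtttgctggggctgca

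Windows for 36 of the 41 genes were in that table, and both strands were searched. TGACGTCA was in 1.98% of all 27305 windows and in 1 of the 36, that of GABARAPL1. TGACNNNGC was in 13.6% of all windows and in 5 of the 36 (ATG9B, ATG101, LAMP1, MAP1LC3B and CALCOCO2), or 13.9%. CACGTG, the core of the element that TFEB binds, was in 7.43% of all windows and in 3 of the 36 (ATG3, LAMP1 and ATG14). TGATGNAA, the composite site of ATF4 and C/EBP factors, was in 3.67% of all windows and in 0 of the 36. The FOXO pattern GTAAACA was in 3.41% of all windows and in 1 of the 36, that of CALCOCO2. ACGTG, the core of the HIF element, which also lies inside every CACGTG, was in 21.6% of all windows and in 11 of the 36, or 30.6%. A match is a string of letters in the window, with no measurement of binding.

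Over the 39 tested genes, 24 had a higher mean signal in embelin and 15 a lower one. The median log2 fold change was 0.13 and the range was from -1.07 to 1.61. Among all genes tested the median was -0.06, and 43.9% had a higher mean in embelin. After adjustment 1 of the 39 was called, GABARAPL1, against 1.81% of all genes tested (1.25% higher and 0.561% lower). By the 2-fold rule 4 of the 39 passed (10.3%), 3 higher and 1 lower, against 8.26% of all genes (4.27% higher and 3.99% lower). At an unadjusted p under 0.05 alone, which 19.5% of all genes passed, 6 were higher (15.4% of the 39, against 8.36% of all genes) and 4 were lower (10.3%, against 11.1% of all genes). In 22 of the 39 the arrays of the groups did not overlap, 15 of them higher and 7 lower, which is 56.4% against 51.8% of the genes measured on all arrays (21.1% higher and 30.7% lower). The share past the 2-fold rule thus lay near that of all genes, and so did the share without overlap when both directions are pooled. By direction, more of the members than of all genes lay apart higher and fewer lay apart lower, a difference that was not tested. In size, 29 of the 39 had a log2 fold change under 0.5 in size. The arrays measure RNA from whole cultures, so a change in many cells cannot be told apart from a larger one in fewer cells.

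**Figure D1:**
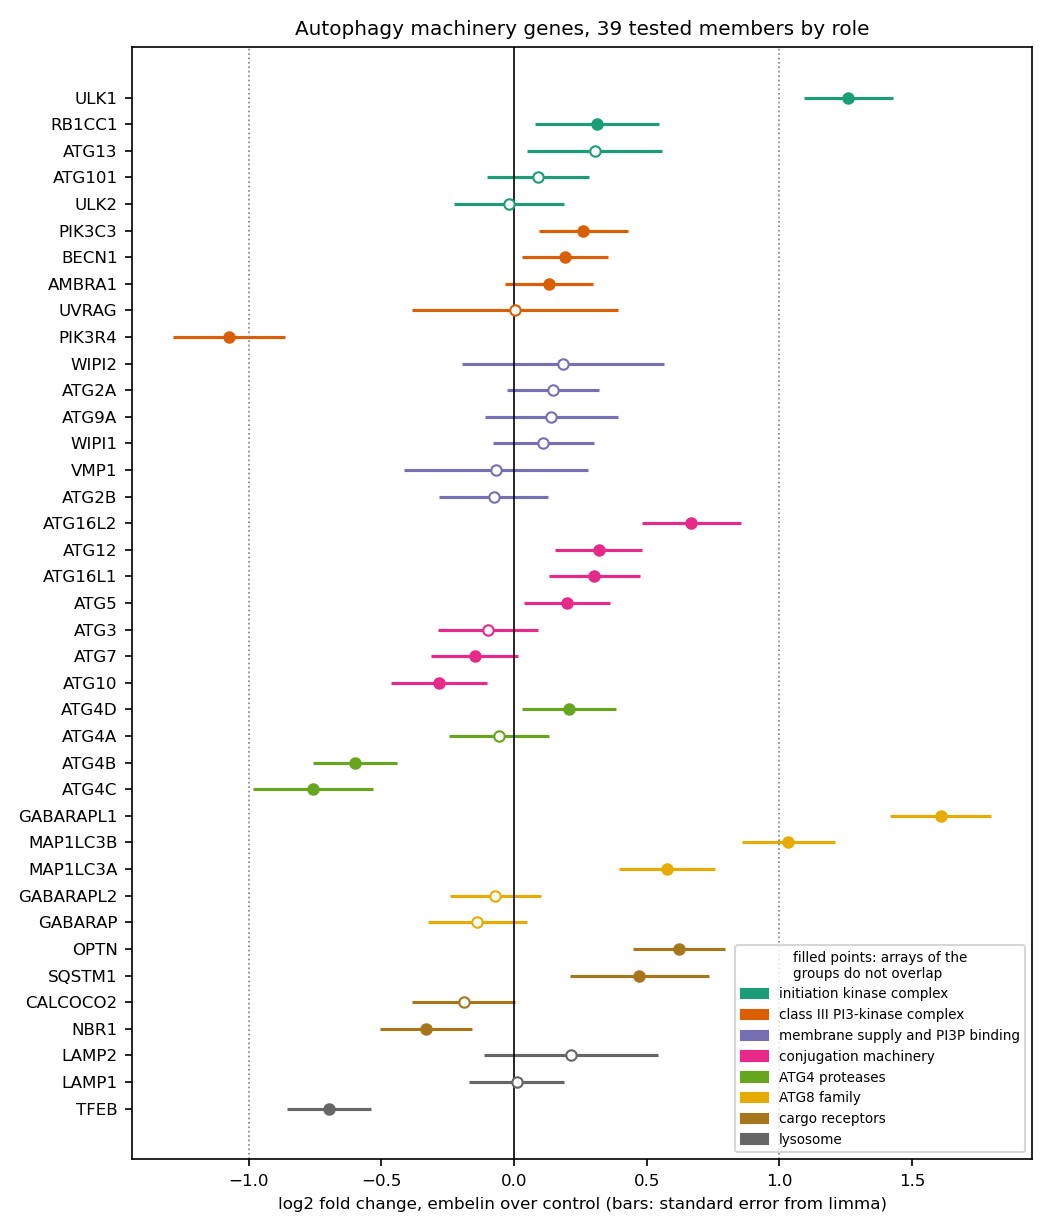
Log2 fold change of each of the 39 tested autophagy genes (x axis, embelin over control, bars of 1 standard error from limma), grouped by role in colour, with filled points where the 2 embelin arrays did not overlap the 2 control arrays and dotted lines at a 2-fold difference. GABARAPL1 (1.61), ULK1 (1.26) and MAP1LC3B (1.03) lie beyond the line on the right and PIK3R4 (-1.07) beyond the line on the left.

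In the initiation complex the kinase itself stood apart from its partners in size. ULK1, the protein kinase that starts autophagosome formation, had log2 signals of 14.91 and 14.98 in the controls and 16.13 and 16.28 in embelin. Both embelin arrays were above both control arrays. The difference was 1.26 (SE 0.17, n = 2 per group), or 2.39-fold, with an adjusted p of 0.0568 by limma. A second ULK1 probe read 11.97 and 12.05 in the controls and 13.24 and 13.32 in embelin, a log2 fold change of 1.27, so the probes gave nearly the same difference. ULK2, its paralog, had a log2 fold change of -0.02 and overlapping groups. Of the other subunits, RB1CC1 (FIP200, the scaffold) had 0.31, ATG13 (the adaptor) 0.30 and ATG101 (the partner that stabilises ATG13) 0.09, and the lowest adjusted p among them was 0.531 by limma (RB1CC1). The second ATG13 probe read 0.62, with groups that did not overlap, while the groups overlapped on the probe that stood for the gene. The difference in response between ULK1 and its partners was not tested.

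Of the 5 tested members of the PI3-kinase complex, 1 was more than 2-fold lower and none more than 2-fold higher. By the 2-fold rule 3.99% of all genes were lower and 4.27% higher. PIK3R4, which encodes VPS15, the regulatory subunit of VPS34, read 9.08 and 9.14 in the controls and 7.84 and 8.24 in embelin. Both embelin arrays were below both controls, and they lay further from each other than the controls did. The difference was -1.07 (SE 0.21, n = 2 per group), or 2.11-fold lower, with an adjusted p of 0.0994 by limma and 1 probe behind it. Without embelin replicate 1 it was -0.87, under the 2-fold line. BECN1, which encodes Beclin 1, read 11.98 and 11.87 in the controls and 12.10 and 12.13 in embelin, a log2 fold change of 0.19 (SE 0.16, n = 2 per group; adjusted p = 0.581 by limma). Its other probes read 0.49 and 0.18, with overlapping groups. PIK3C3, the catalytic subunit VPS34, had 0.26 and AMBRA1, a Beclin 1 interactor, 0.13, both with embelin arrays above both controls by less than 0.5. UVRAG, of the endosomal form of the complex, had 0.0045 and overlapping groups. ATG14, which brings the complex to sites of autophagosome formation, was not kept, being well above background on 1 array of each group.

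In none of the 6 tested genes of membrane supply and PI3P binding were the groups apart on the probe that stood for the gene. Among all genes measured on every array, the groups lay apart in 51.8% (21.1% higher and 30.7% lower). ATG2A (0.15) and ATG2B (-0.08) encode lipid transfer proteins, ATG9A (0.14) the scramblase of autophagy vesicles, and VMP1 (-0.07) a scramblase of the endoplasmic reticulum. The PI3P-binding proteins WIPI1 and WIPI2 had log2 fold changes of 0.11 and 0.18. The 3 WIPI2 probes disagreed. The brightest, which stood for the gene, read 14.46 and 13.89 in the controls and 14.77 and 13.95 in embelin, the next had a log2 fold change of -0.01, and the dimmest had -0.73 with groups that did not overlap (9.69 and 9.83 against 8.93 and 9.13). The second VMP1 probe read 0.26, also without overlap. ATG9B was not kept, with neither of its 2 probes above background on any embelin array.

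The conjugation machinery had 6 of 7 genes whose groups did not overlap, 4 higher and 2 lower, where 21.1% of all genes lay apart higher and 30.7% lower, and 6 of the 7 had differences under 0.5 in size. ATG16L2, the paralog of ATG16L1, read 9.88 and 9.77 in the controls and 10.36 and 10.63 in embelin. Both embelin arrays were higher, by 0.67 on average (SE 0.19, n = 2 per group; adjusted p = 0.174 by limma). ATG5, the acceptor of ATG12, read 10.39 and 10.51 in the controls and 10.66 and 10.64 in embelin, a log2 fold change of 0.20 (adjusted p = 0.565 by limma), while its dimmer probe read -0.16 with overlapping groups. ATG7, the activating enzyme of both conjugation reactions, read 9.47 and 9.33 in the controls and 9.26 and 9.24 in embelin, a log2 fold change of -0.15 (adjusted p = 0.679 by limma), and -0.26 by its second probe. ATG12, the ubiquitin-like protein joined to ATG5, had 0.32 and 0.29 by its 2 probes. ATG16L1, which holds the ATG12-ATG5 conjugate on the membrane, had 0.30. The conjugating enzymes ATG10 and ATG3 had -0.28 and -0.10, and the second ATG10 probe read 0.02.

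Of the ATG4 proteases, which trim new ATG8 proteins and release them from membranes, 3 had lower and 1 a higher mean in embelin, with a median of -0.33. ATG4C read 8.63 and 8.49 in the controls and 7.58 and 8.02 in embelin, a log2 fold change of -0.76 (SE 0.22, n = 2 per group; adjusted p = 0.190 by limma). Its second probe read -0.68, with 1 of the embelin arrays above background. ATG4B, which processes LC3, read 10.23 and 10.27 in the controls and 9.61 and 9.69 in embelin. The groups were apart by several times their own spread, with a log2 fold change of -0.60 (SE 0.16, n = 2 per group; adjusted p = 0.162 by limma). The second ATG4B probe did not share this, with a log2 fold change of 0.09 and overlapping groups, and the mean over both probes gave -0.25. ATG4A had -0.06 and ATG4D 0.21.

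The ATG8 family held the largest difference of the whole set and was uneven from gene to gene. GABARAPL1, a GABARAP-type ATG8 protein, read 10.84 and 11.13 in the controls and 12.64 and 12.54 in embelin. It rose by 1.61 on the log2 scale (SE 0.19, n = 2 per group), or 3.05-fold, with an adjusted p of 0.0496 by limma. Its second probe read 9.16 and 9.66 in the controls and 10.94 and 11.10 in embelin, which is also 1.61. The size of the rise ranged from 1.46 to 1.75 with 1 array left out. Several of the other alternatives cannot change the mean difference of a probe, so they do not check the size. The call sat at the threshold. It was lost in 13 of 17 alternatives, and leaving out any 1 array, which leaves 1 array in a group, ended it. With the replicate number as a block, a block for array background or array position as a covariate, 0 of all genes were called. Those settings thus say little about GABARAPL1 in particular.

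MAP1LC3B, which encodes LC3B, the protein whose lipid-bound form is the common marker of autophagosomes, read 10.86 and 10.71 in the controls and 11.73 and 11.90 in embelin. The groups were apart by several times the pooled SD of 0.12, with a log2 fold change of 1.03 (SE 0.18, n = 2 per group), or 2.05-fold, and an adjusted p of 0.0803 by limma. Its other 2 probes gave larger differences. The first read 10.34 and 9.70 in the controls and 11.48 and 11.76 in embelin, a log2 fold change of 1.60. The second read 10.21 and 9.91 in the controls and 11.59 and 11.93 in embelin, a log2 fold change of 1.70. Without control replicate 2 or without embelin replicate 2, MAP1LC3B stood at 0.96 and 0.94, under the 2-fold line. Probes for MAP1LC3B may also bind RNA of its near-identical copy MAP1LC3B2, which had no probe of its own among those matched, and those for GABARAPL1 RNA of the related GABARAPL3, so the source of these signals is uncertain to that extent.

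The remaining ATG8 genes had smaller differences. MAP1LC3A, which encodes LC3A, read 7.07 and 6.82 in the controls and 7.48 and 7.57 in embelin, both higher, with a log2 fold change of 0.58 (SE 0.18, n = 2 per group; adjusted p = 0.207 by limma). GABARAP had -0.14 and overlapping groups. GABARAPL2, also known as GATE-16, had -0.07 by both of its probes. Within this family of 5, 3 genes were higher and 0 lower at an unadjusted p under 0.05, against 8.36% higher and 11.1% lower of all genes. The other 2 had differences of at most 0.14 in size. The difference in response between these genes was not tested.

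**Figure D2:**
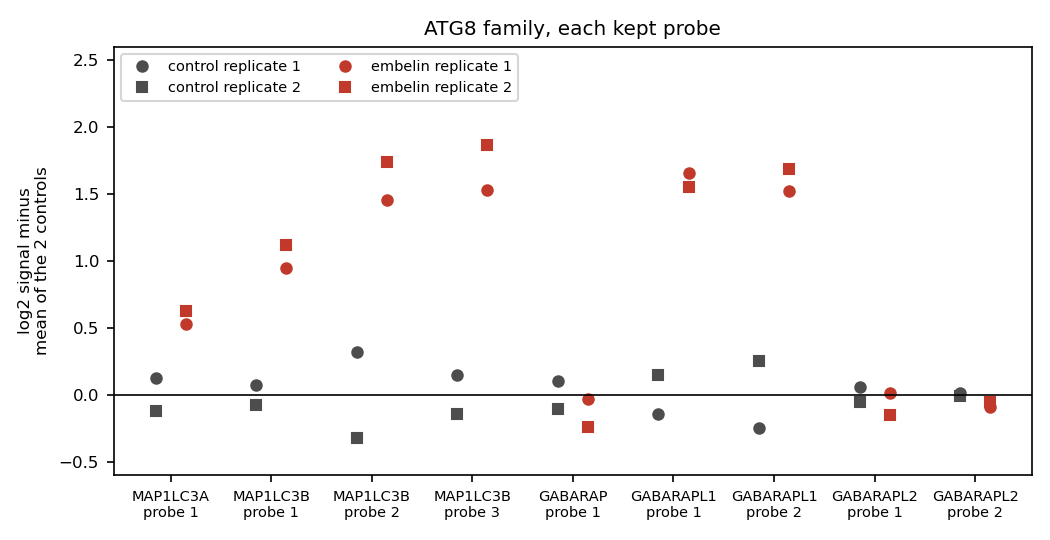
Every kept probe of the ATG8 family, with the log2 signal of each array minus the mean of the 2 control arrays on the y axis (grey, control; red, embelin; circles, replicate 1; squares, replicate 2). The 3 MAP1LC3B probes and the 2 GABARAPL1 probes all have both embelin arrays above both controls, with mean differences from 1.03 to 1.70, while those of GABARAP and GABARAPL2 stay within 0.25 of the control mean.

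Among the 4 cargo receptors 2 had higher and 2 lower means. OPTN, which encodes optineurin, a receptor for ubiquitinated mitochondria and bacteria, read 12.89 and 12.91 in the controls and 13.41 and 13.63 in embelin. Both embelin arrays were higher, by 0.62 on average (SE 0.17, n = 2 per group; adjusted p = 0.173 by limma). SQSTM1, which encodes p62, the receptor for ubiquitinated protein, read 14.37 and 14.96 in the controls and 15.06 and 15.21 in embelin. The highest control lay just under the lower embelin array, and the log2 fold change of 0.47 (SE 0.26, n = 2 per group; adjusted p = 0.410 by limma) ranged from 0.18 without control replicate 1 to 0.76 without control replicate 2. NBR1, a receptor related to p62, had -0.33. CALCOCO2, which encodes NDP52, had -0.19 by its brightest probe and 0.41 and -0.29 by the others.

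TFEB, the transcription factor of lysosomal and autophagy genes, read 9.00 and 9.06 in the controls and 8.30 and 8.36 in embelin. The groups were apart by far more than the pooled SD of 0.04, and the difference of -0.70 (SE 0.16, n = 2 per group) had an adjusted p of 0.126 by limma, which takes the spread of all genes into account. LAMP1, a glycoprotein of the lysosomal membrane, read 16.34 and 16.45 in the controls and 16.29 and 16.52 in embelin, a log2 fold change of 0.011 (adjusted p = 0.982 by limma), with -0.06 by its second probe. LAMP2, its relative, had 0.21 by both of its probes, with overlapping groups.

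**Figure D3:**
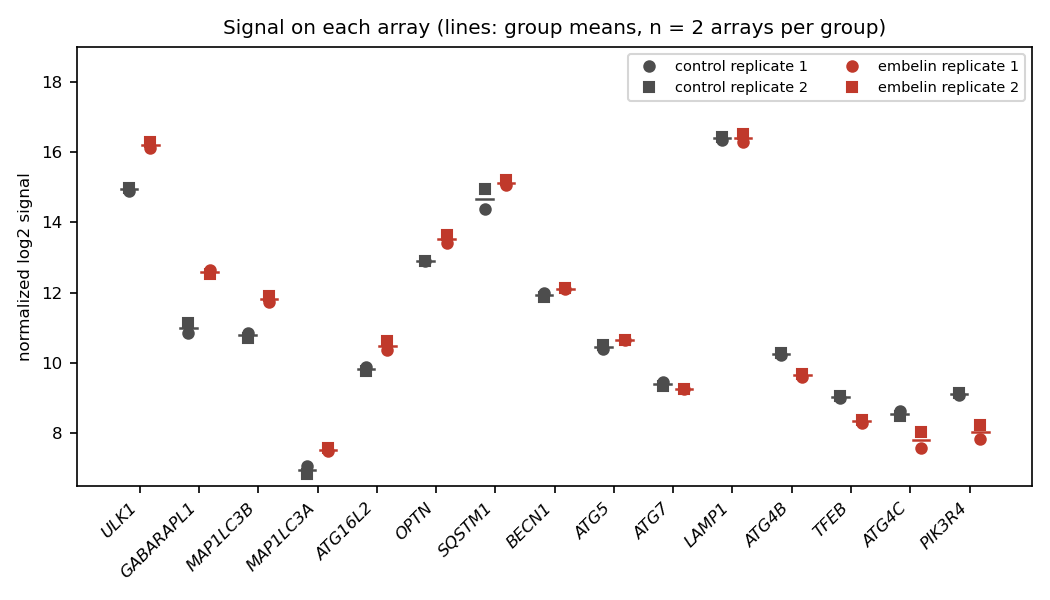
Normalized log2 signal (y axis) of 15 autophagy genes on each of the 4 arrays (grey, control; red, embelin; circles, replicate 1; squares, replicate 2; lines, group means of 2 arrays). Levels of different genes come from different probes and are not comparable, and LAMP1 alone of these 15 has groups that overlap.

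The genes around this machinery were examined through 6 further lists. Of 10 further autophagy genes tested of 13 listed, 8 had a higher mean in embelin and the median difference was 0.32. After adjustment 0 were called, against 1.81% of all genes. At an unadjusted p under 0.05, 3 were higher and 0 lower, against 8.36% higher and 11.1% lower of all genes. By the 2-fold rule 1 was higher and 0 lower, against 4.27% higher and 3.99% lower of all genes. WDR45B, a WIPI-family protein also called WIPI3, passed the 2-fold rule with 13.68 and 13.57 in the controls and 14.86 and 15.09 in embelin, a log2 fold change of 1.35 (SE 0.18, n = 2 per group; adjusted p = 0.0572 by limma).

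The list of further cargo receptors and mitophagy genes had 19 tested members, of which 13 had higher means and 14 a log2 fold change under 0.5 in size. The median was 0.13, and 2 were called after adjustment, both higher, against 1.25% of all genes called higher. Every call after adjustment in this and the following lists was lost, as were those of all genes, with the replicate number as a block, with a block for array background, with array position as a covariate, with no filter on dim probes, by the methods' t-test, or with any 1 array left out. BNIP3L, also called NIX, a mitophagy receptor of the outer mitochondrial membrane, read 11.91 and 11.61 in the controls and 13.86 and 13.80 in embelin. It rose by 2.07 (SE 0.19, n = 2 per group), or 4.20-fold, with an adjusted p of 0.0361 by limma. BNIP3, its paralog, read 13.50 and 13.66 in the controls and 15.31 and 15.44 in embelin. It rose by 1.80 (SE 0.17, n = 2 per group), or 3.48-fold, with an adjusted p of 0.0380 by limma. STBD1, a receptor for glycogen, read 7.12 and 7.61 in the controls and 9.33 and 9.60 in embelin, a log2 fold change of 2.10 (SE 0.25, n = 2 per group) that passed the 2-fold rule with an adjusted p of 0.0501 by limma.

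Fusion with the lysosome and degradation there are the later steps of the pathway. Of 16 genes of autophagosome fusion, 8 had higher and 8 lower means, with a median of 0.02, and 0 were called under either rule (0 higher and 1 lower at an unadjusted p under 0.05, TECPR2 with -0.71). Of 34 lysosomal enzymes and membrane proteins tested of 35 listed, 16 had higher and 18 lower means, with a median of -0.02, and 0 were called under either rule. Among all genes 1.81% were called after adjustment and 8.26% passed the 2-fold rule. At an unadjusted p under 0.05, 11.1% of all genes were lower and 8.36% higher. Of the lysosomal genes 0 were lower and 3 were higher (8.82%), a share near that of all genes. They were the cholesterol transporter NPC1 (0.97), the protease CTSL (0.74) and the proton pump subunit ATP6V1C1 (0.61), and these and TECPR2 were picked after their values were seen.

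Upstream, 22 of 25 listed regulators of ULK1 from the mTORC1 and AMPK pathways were tested, and 16 had higher means, with a median of 0.37. After adjustment 3 were called, all higher, against 1.25% of all genes called higher. SESN2, a leucine sensor, rose by 3.01 (adjusted p = 0.0233 by limma), from 8.02 and 8.28 to 11.04 and 11.29. TRIB3, an inhibitor of AKT, rose by 1.97 (adjusted p = 0.0350 by limma), from 15.27 and 15.49 to 17.36 and 17.35. DDIT4, also called REDD1, an activator of the TSC complex, rose by 1.75 (adjusted p = 0.0480 by limma), from 15.21 and 15.55 to 17.08 and 17.18. At an unadjusted p under 0.05, 8 were higher and 0 lower, against 8.36% higher and 11.1% lower of all genes. The other 5, picked after their values were seen, were RRAGC (0.95), RRAGA (0.83) and RRAGD (0.80) of the Rag GTPases, FLCN (0.87), which acts on them, and the AMPK subunit PRKAG2 (0.77). The Rag GTPases recruit mTORC1 to the lysosome, and RRAGB, also listed, was not kept. Other listed restrainers of mTORC1 or activators of AMPK were not called and went in both directions. DEPTOR (-0.62), STK11 (-0.41), AKT1S1 (-0.21) and TSC2 (-0.15) had lower means. TSC1, without a value for embelin replicate 1, had a higher one (0.24). These genes were also picked after their values were seen.

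Of the 8 transcription factors tested of 9 listed, 5 had higher and 3 lower means, with a median of 0.28. After adjustment 2 were called, 1 in each direction, against 1.25% of all genes called higher and 0.561% called lower. By the 2-fold rule 2 were higher and 1 lower, against 4.27% higher and 3.99% lower of all genes. DDIT3, which encodes CHOP, a factor induced by the integrated stress response, read 7.21 and 7.28 in the controls and 11.55 and 11.42 in embelin, and rose by 4.24 (SE 0.16, n = 2 per group; adjusted p = 0.0204 by limma). MITF, of the same family as TFEB, read 11.03 and 10.96 in the controls and 9.56 and 9.49 in embelin, and fell by 1.47 (SE 0.16, n = 2 per group; adjusted p = 0.0454 by limma). TFE3, the third member of that family on the lists, had -0.05. FOXO3, a factor of autophagy genes in starvation, passed the 2-fold rule with 1.03 (8.19 and 8.83 against 9.23 and 9.84; adjusted p = 0.227 by limma). ATF4, which acts with CHOP on autophagy genes under stress, read 16.37 and 16.41 in the controls and 16.96 and 16.87 in embelin, a log2 fold change of 0.52 (adjusted p = 0.199 by limma).

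**Figure D4:**
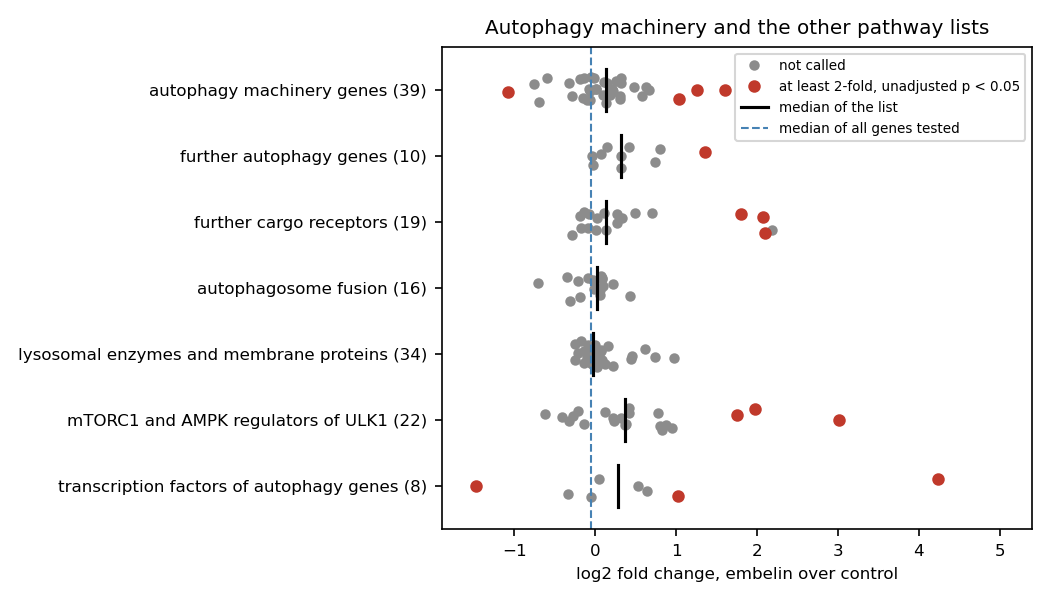
Log2 fold change (x axis, embelin over control) of each tested gene of the autophagy machinery and of 6 related lists, with the number tested in brackets, the median of each list as a black bar and the median of all genes tested (-0.06) as a dashed line. Red points are genes at least 2-fold apart with an unadjusted limma p under 0.05, as were 8.26% of all genes. The autophagy machinery has 4, further autophagy genes 1, further cargo receptors 3, and the fusion and lysosomal lists 0. The mTORC1 and AMPK list has 3, and the transcription factors have 2 higher and 1 lower.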

How the data were processed

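Total RNA of 4 A549 samples was labelled with Cy3 and hybridized to 1-colour Agilent arrays. The authors deposited spot intensities, which the headers credit to Feature Extraction 10.7.3.1, background-subtracted and detrended within the array and not normalized between arrays. Probe names were updated through RefSeq accessions where these matched (28595 of 50238 probes), through another probe with the same name (2341) or an alias (4), and otherwise kept.

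The 75th percentile over all spots that are not controls, which was 601 to 739 before, was made equal on the 4 arrays (log2 of 9.40), as the study's methods name it. The scaling was applied to the mean over the spots of a probe, with outlier spots (47 to 743 per array) left out. Values under 1 were then set to 1 and log2 was taken. The 26146 probes read well above background by both controls or by both embelin arrays were kept, and the kept probe with the highest mean stood for the gene. Groups were compared by limma 3.58.1 under R 4.3.3 (lmFit, then eBayes with a prior of 2.17 degrees of freedom and a prior SD of 0.217). The median pooled SD was 0.211, and precision is limited by there being 4 arrays. An exact two-sided permutation test of 2 against 2 arrays cannot go below p = 0.333. The fit was tested on simulated data.

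The members, the gene lists and the markers were chosen with earlier results of these data known, so nothing here is independent of those results. Every member is named. Values on all arrays are given for members called under either rule or apart by at least 0.58 without overlap, and for 9 central genes. From the other lists the genes that passed either rule are named. Array values of MAP1LC3A and of second probes were added after they were seen. Some listed genes are not reported here by name, though counts include them. Promoter windows came from RefSeq (GRCh38.p14), the first where a gene has several. The alternatives were those listed at the end, 17 in all.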

Additional observations from a re-analysis of the deposited data

How the results depend on the processing

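All 22 members with groups that did not overlap kept their direction under all 17 alternatives, but many of these could not have reversed it. Leaving out 1 array cannot reverse groups that do not overlap, and several other settings leave the mean difference of a probe as it was. The direction was open to change mainly under normexp, under quantile normalization and when probes were averaged. Of the 663 values compared for the 39 members under the 17 alternatives, 643 kept their side of the adjusted threshold. Another 13 (all of GABARAPL1) lost the call and 7 (of ULK1 and MAP1LC3B) gained it. The members called higher after adjustment, 1 as reported, were 3 with normexp background correction, 3 with a filter asking for all 4 arrays, 3 by eBayes with trend and robust, and 2 with median centring. They were 0 with quantile normalization, no filter on dim probes, the authors' deposited probe table, outlier spots kept, the methods' t-test, a block for array background, array position as a covariate, and a gene's probes averaged, and 0 to 0 with each array left out in turn. With no filter or any array left out 0 of all genes were called by limma, while 5 to 6 members still had an unadjusted p under 0.05. Where 1 array is left in a group it is assumed to vary like the others. Members called lower after adjustment were 0 under every alternative, and members at least 2-fold lower, 1 as reported, were 0 with normexp and 0 to 1 with each array left out (0 without embelin replicate 1). With the replicate number as a block 0 members were called higher, GABARAPL1 having an adjusted p of 0.0951, and 0 of all genes. Deviations of same-numbered arrays from their group means correlated at 0.175, which with 2 arrays per group is the same value for both numbers, and the labels state no pairing. The median log2 fold change of the members stayed between 0.06 and 0.16. Over all genes the counts called ranged from 0 to 566 higher and from 0 to 495 lower, the highest by eBayes with trend and robust. The causes of these shifts were not tested. The 4 arrays limit the precision, and genes not above background, such as ATG14 and ATG9B, have no tested difference here.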
